A study of Mus musculus with 8 samples.

Results

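The CCR4-NOT complex removes poly(A) tails from mRNAs, and this account follows the RNA of 10 of its genes in mouse pluripotent stem cells: Cnot1, Cnot2, Cnot3, Cnot4, Cnot6, Cnot6l, Cnot7, Cnot8, Cnot10 and Cnot11. They were chosen by symbol, as every entry of the 8 gene tables that carries a member's name, alone or joined with another gene. All 10 were found among the 23035 gene symbols that the tables name once small RNA genes are set aside. All 10 also passed the filter for testing, a level of 1 FPKM or more reached by 2 or more libraries. FPKM is the number of sequenced fragments scaled to transcript length and library size.

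RNA was sequenced from 4 groups with 2 libraries each. The Dnd1-KD group is 129/Ola embryonic stem (ES) cells with a wild-type genotype and a knockdown of Dnd1, at passages 10 to 12. CDGC1 and CDGC6 are a pair of pluripotent lines derived from teratoma cells of the testis of new-born Dnd1-deficient mice, each a single line, with the genotype Dnd1ter/ter, the strain 129Sv/Dnd1ter/ter/Oct4deltaPE-GFP and passages 15 to 18. The control is the wild-type 129/Ola ES line E14tg2a at passages 10 to 12. All groups were kept in medium with serum and LIF. The labels do not say whether both libraries of a group are from different cultures, and every p-value below is measured against library-to-library spread alone, possibly a technical one. Strain, genotype, origin and passage differ together between the derived lines and the ES cells and cannot be told apart.

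The complex is built on the large scaffold protein CNOT1. CNOT2 and CNOT3 bind its C-terminal end, CNOT10 and CNOT11 its N-terminal end in human cells, and a nuclease pair sits in the middle: CNOT7 or CNOT8, of the DEDD nuclease family, which in turn holds CNOT6 or CNOT6L, of the EEP family. RNA-binding proteins bring the complex to chosen transcripts. DND1, the vertebrate germ-line protein that is missing or targeted here, and its partners of the NANOS family are among them.

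The targeted gene could not be checked. In the Dnd1-KD libraries Dnd1 shared an entry with its neighbour Hars (57.6 and 53.9 FPKM), which encodes a tRNA synthetase, and it was listed at 0 by itself in the 4 derived-line and 2 control libraries. The Dnd1-KD group is therefore named by its label. The intervals in the tables imply between 10.7 M and 18.0 M fragments in a library, and 76.8% to 85.6% of all FPKM lay in unnamed entries. The 4 pluripotency markers Pou5f1, Sox2, Nanog and Sall4 were all above 1 FPKM in every group, and they summed to 631 to 768 FPKM in Dnd1-KD, 1208 to 1268 in CDGC1, 1438 to 1676 in CDGC6 and 1283 to 1292 in control. The 8 fibroblast or feeder markers summed to 12.2 to 12.6 FPKM in Dnd1-KD, 34.2 to 37.9 in CDGC1, 25.1 to 33.1 in CDGC6 and 8.36 to 9.18 in control, with Lum at 0 in Dnd1-KD and CDGC6. The 5 testis somatic markers stayed between 6.31 and 11.5 FPKM, with Star at 0 in Dnd1-KD and control, and the 3 leukocyte markers at 0.298 FPKM or less. The part of these marker differences in the results below was not tested. In bulk RNA, fewer cells of a type and less RNA per cell cannot be told apart.

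Every member except Cnot3, which has no value of its own in control, was expressed in every library, over a wide range of levels. Cnot3 cannot be placed in one order with the rest, since its joint entry with Prpf31 averaged 90.2 FPKM over the 8 libraries and its own values, in the 6 libraries that have one, ran from 38.7 to 55.2 FPKM. Of the other 9, Cnot1 and Cnot8 were highest at 64.3 and 63.5 FPKM on average over the 8 libraries, and Cnot2 followed at 45.5 FPKM. Cnot10 averaged 34.1, Cnot7 32.4, Cnot6 24.5, Cnot11 21.1 and Cnot4 13.5 FPKM. Cnot6l was lowest at 2.98 FPKM. Cnot1 and Cnot8 do not differ beyond the spread between libraries. The group means of Cnot10 cross those of Cnot2, Cnot7 and Cnot6, and the group means of Cnot6 cross those of Cnot11. In contrast, Cnot6l lay below every other member in each library. Cnot1 ranked at the 88.3 percentile of level among the 11889 units tested, and Cnot6l at the 21.4 percentile. A unit is a gene, or a set of genes that a table joins.

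Group means of the members moved little for genes in these cells. The range between the highest and lowest group mean had a median of 0.48 on the log2(FPKM + 1) scale over the members, against 0.77 over all units tested. Cnot11 had the narrowest range of the members at 0.09, narrower than nearly every other unit (percentile 0.353), and Cnot1 followed at 0.16 (percentile 2.33). Cnot6, Cnot10 and Cnot4 had the widest, at 0.80, 0.78 and 0.75, close to the middle of all units.

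**Figure D1:**
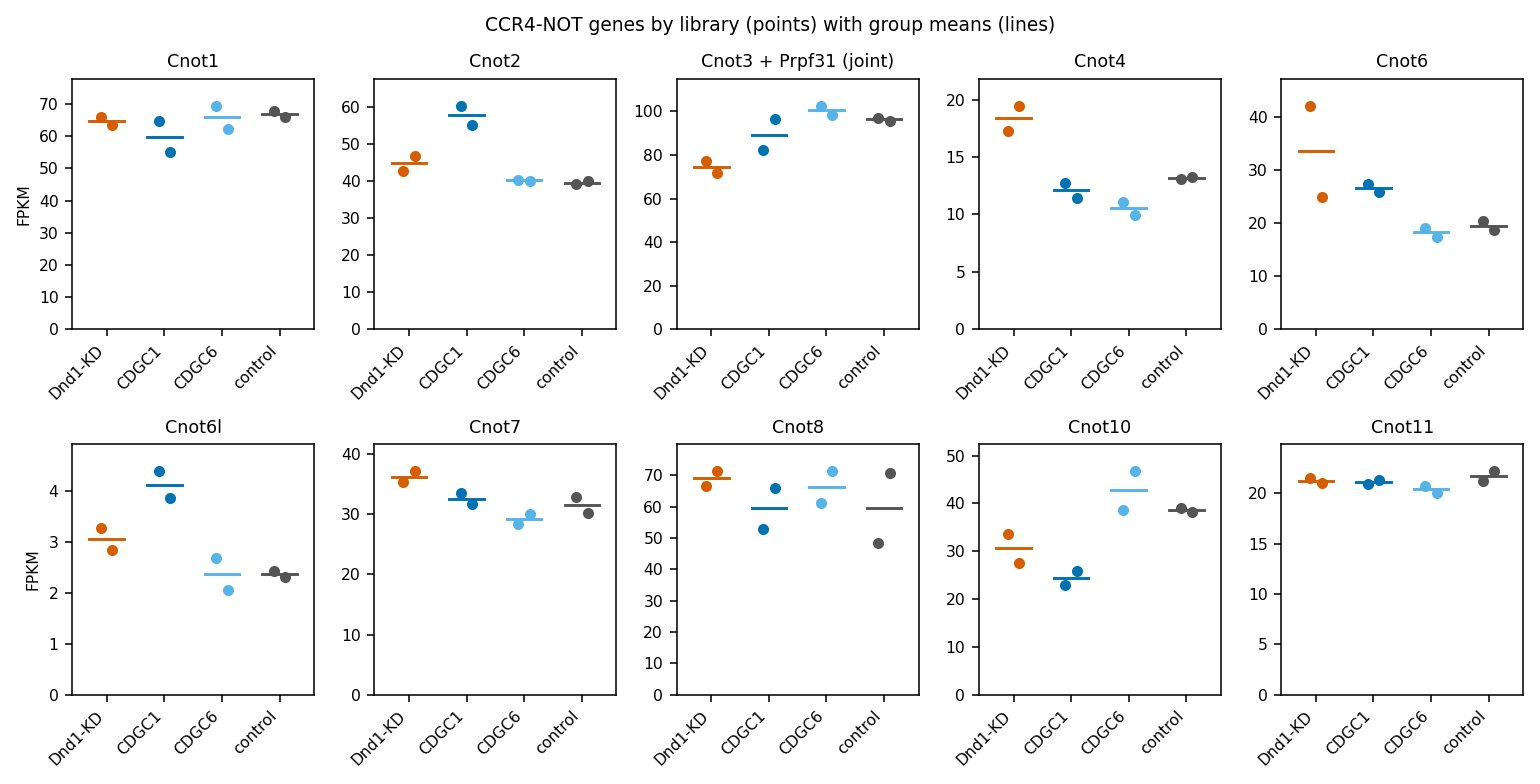
FPKM (vertical axis, from 0) of each CCR4-NOT gene in the 8 libraries, with groups along the horizontal axis, a point for each library and a line for the group mean; Cnot3 is drawn with Prpf31 because the control tables join them. Cnot11 stays between 20.0 and 22.2 FPKM, Cnot2 and Cnot6l are highest in CDGC1, and Cnot4 is highest in Dnd1-KD.

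The scaffold gene passed the test in none of the 6 comparisons. Cnot1 (chromosome 8, 95719451 to 95807464, minus strand, mm10 coordinates of GENCODE vM21) had 66.1 and 63.5 FPKM in Dnd1-KD, 64.6 and 54.9 in CDGC1, 69.5 and 62.4 in CDGC6, and 67.9 and 65.8 in control. Only the second CDGC1 library stood lower than the rest. Its log2 difference from control was −0.04 in Dnd1-KD (95% interval −0.28 to 0.19), −0.16 in CDGC1 (−0.40 to 0.07) and −0.02 in CDGC6 (−0.26 to 0.21). The tables give 4 of the 8 Cnot1 values an interval that starts at 0, so their own precision is unknown. Here and below, log2 differences are on the log2(FPKM + 1) scale, which understates the change of low genes, and adjusted p-values come from limma over all 11889 units.

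Cnot2, a structural subunit of the NOT module, rose in CDGC1. It had 60.2 and 55.1 FPKM in CDGC1, against 42.6 and 46.8 in Dnd1-KD, 40.3 and 40.0 in CDGC6 and 39.0 and 40.0 in control. Both CDGC1 libraries lay above the other 6, and the Dnd1-KD libraries lay between them and the rest. The CDGC1 mean was 57.7 ± 3.62 FPKM and the control mean 39.5 ± 0.723 FPKM (SD, n = 2 each), a log2 difference of 0.53 ± 0.08 (SE, limma adjusted p = 0.00181). The difference of CDGC1 from CDGC6 was nearly as large, at 0.51 ± 0.08 (adjusted p = 0.00250), and that from Dnd1-KD was 0.36 ± 0.08 (adjusted p = 0.00676). Dnd1-KD itself differed from control by 0.17 (95% interval −0.01 to 0.36), which did not pass. The interval of its second CDGC6 value starts at 0. Cnot2 lies on chromosome 10 (116485161 to 116581511, minus strand).

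Cnot3, the partner of Cnot2, has no value of its own in control. Both control tables join it with Prpf31, a splicing factor gene whose entry ends upstream of it on the same strand of chromosome 7, into 1 entry of 97.0 and 95.7 FPKM. The summed values of the pair were 77.5 and 71.9 FPKM in Dnd1-KD, 82.1 and 96.6 in CDGC1 and 102.6 and 98.6 in CDGC6. The joint value fell in Dnd1-KD, by 0.36 ± 0.09 on the log2 scale against control (adjusted p = 0.0242). Where the tables separate them, Cnot3 alone had 49.1 and 49.5 FPKM in Dnd1-KD, 38.7 and 48.4 in CDGC1 and 54.6 and 55.2 in CDGC6. Prpf31 alone had 28.4 and 22.4 FPKM in Dnd1-KD, 43.4 and 48.2 in CDGC1 and 48.0 and 43.3 in CDGC6. Cnot3 of Dnd1-KD thus lay above CDGC1 and below CDGC6, while Prpf31 of Dnd1-KD lay below all 4 derived-line libraries. Which of the genes the joint difference from control belongs to was not tested, since control has no separate values. The joint call was lost without the second Dnd1-KD library (−0.31, adjusted p = 0.119), without the first control library (−0.35, 0.120) and without the second (−0.37, 0.102), over alternatives that ranged from 0.00940 to 0.120. The joint difference of CDGC1 from Dnd1-KD was at the threshold (0.25, adjusted p = 0.0488) and passed in only 5 of 19 alternatives, over adjusted p from 0.00882 to 0.233. It was lost under quantile normalization (0.13, 0.233) and on leaving out any library other than the first of CDGC1, and on its own values Cnot3 differed by −0.18 (adjusted p = 0.215). The joint difference of CDGC6 from Dnd1-KD was 0.43 (adjusted p = 0.00879, over alternatives from 0.00276 to 0.303). It was lost without the second Dnd1-KD library (0.37, 0.0512) and on the values of Cnot3 itself (0.15, 0.303). Of the 8 intervals listed for Cnot3 entries, 4 start at 0.

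Cnot4, an E3 ubiquitin ligase that is loosely bound to the complex in mammals, rose in Dnd1-KD. It had 17.3 and 19.5 FPKM in Dnd1-KD, 12.7 and 11.4 in CDGC1, 11.1 and 9.96 in CDGC6, and 13.1 and 13.3 in control. Both Dnd1-KD libraries were above all others, and the other 3 groups lay close together in the order control, CDGC1, CDGC6. The means of 18.4 ± 1.53 FPKM in Dnd1-KD and 13.2 ± 0.115 FPKM in control (SD, n = 2 each) differed by a log2 value of 0.45 ± 0.10 (adjusted p = 0.0168). The call was lost without the second Dnd1-KD library (0.37, adjusted p = 0.0896), the first control library (0.44, 0.0996) or the second (0.46, 0.0862), and the adjusted p ranged from 0.0143 to 0.0996 over 19 alternatives. Both derived lines were lower than Dnd1-KD, CDGC1 by 0.57 ± 0.10 (log2 difference −0.57, adjusted p = 0.00312) and CDGC6 by 0.75 ± 0.10 (log2 difference −0.75, adjusted p = 0.00156). Both of these calls held in all 19 alternatives. Cnot4 lies on chromosome 6 (35022065 to 35133724, minus strand), and no other annotated gene overlaps it. Unnamed entries do, 2 in the first control library that sum to 12.2 FPKM and 1 in the first CDGC6 library at 0.922 FPKM. None was listed there in Dnd1-KD or CDGC1, and the part of these entries in the Cnot4 values was not tested.

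The 4 nuclease genes form 2 pairs of close paralogs, so the tables were asked whether fragments of one could be counted for the other. The longest coding sequences in GENCODE vM21 are 73.7% identical between Cnot6 and Cnot6l (1651 aligned bases) and 72.4% between Cnot7 and Cnot8 (855 aligned bases). The longest stretch without a mismatch is 20 bases in each pair. Those stretches are shown in capitals within 60 bases of coding sequence, since they mark where the paralogs are hardest to tell apart:
Cnot6: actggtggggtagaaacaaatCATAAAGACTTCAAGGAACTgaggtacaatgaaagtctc
Cnot6l: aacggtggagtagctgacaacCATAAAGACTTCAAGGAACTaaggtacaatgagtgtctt
Cnot7: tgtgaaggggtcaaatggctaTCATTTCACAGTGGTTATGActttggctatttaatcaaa
Cnot8: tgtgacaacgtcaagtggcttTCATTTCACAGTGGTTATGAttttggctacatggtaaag
Mismatches stand close to both ends of every shared stretch.

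Cnot6, an EEP nuclease, was higher in Dnd1-KD by its mean, but its Dnd1-KD libraries did not match each other. They had 42.2 and 24.9 FPKM, against 27.3 and 25.9 in CDGC1, 19.1 and 17.4 in CDGC6, and 20.4 and 18.7 in control. The first Dnd1-KD library was the highest of all 8, while the second lay at the level of CDGC1. The intervals in the tables do not overlap between the Dnd1-KD libraries (40.4 to 44.0 and 23.8 to 26.1 FPKM), and the entry of the first reaches 682 bases further at its 5′ end than the usual entry. Whether the longer entry bears on the value was not tested. The log2 difference of Dnd1-KD from control was 0.70 ± 0.22 (95% interval 0.16 to 1.25), just short of the threshold (adjusted p = 0.0520). It passed with the first Dnd1-KD library alone (1.07, adjusted p = 0.00818) and not with the second alone (0.34, adjusted p = 0.0710), over alternatives from 0.00818 to 0.185. CDGC1 differed from control by 0.43 (−0.12 to 0.97, adjusted p = 0.162), a call that was made when either Dnd1-KD library was left out (adjusted p = 0.0129 and 0.0126, over alternatives from 0.0126 to 0.382). Against Dnd1-KD, CDGC6 was lower (log2 difference −0.80 ± 0.22, adjusted p = 0.0249), which was lost with only the compared groups in the fit (0.0673) and without its own first (−0.86, 0.0684) or second library (−0.73, 0.106), over alternatives from 0.00280 to 0.106. CDGC1 differed from CDGC6 by 0.52 (95% interval −0.02 to 1.06), which did not pass (limma adjusted p = 0.104). With only the compared groups in the fit it passed (adjusted p = 0.0250). Cnot6 lies on chromosome 11 (49671503 to 49712723, minus strand), where the annotation also places the processed pseudogenes Gm12191 and Gm12192. Unnamed entries overlap it in the second CDGC1 library (3.53 FPKM) and the second control library (3.95 FPKM in sum). Their part in its values was not tested.

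Cnot6l, the other EEP nuclease, rose in CDGC1. It had 4.40 and 3.86 FPKM in CDGC1, against 3.27 and 2.84 in Dnd1-KD, 2.69 and 2.06 in CDGC6, and 2.42 and 2.31 in control. The interval of the second CDGC1 value runs from 0 to 38.8 FPKM, so its own precision is unknown. Both CDGC1 libraries were above the rest, the Dnd1-KD libraries came next, and the CDGC6 libraries lay on either side of control. The CDGC1 mean of 4.13 ± 0.378 FPKM was 1.75 times the control mean of 2.37 ± 0.0825 FPKM (SD, n = 2 each), a log2 difference of 0.61 ± 0.13 (adjusted p = 0.00843). It did not pass without the second control library (0.58, adjusted p = 0.0544, over alternatives from 0.00422 to 0.0544). CDGC1 was also higher than CDGC6, by 0.61 ± 0.13 (adjusted p = 0.00896). Dnd1-KD differed from control by 0.27 (95% interval −0.04 to 0.57, adjusted p = 0.147).

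Short unnamed entries lie just upstream of the usual Cnot6l start on chromosome 5. None was listed in Dnd1-KD, whereas the CDGC1 libraries had 1 each at 5.13 and 4.51 FPKM, the CDGC6 libraries at 3.73 and 7.53 FPKM, and the control libraries at 1.57 and 2.35 FPKM. All 4 derived-line values were above both control values, with wide intervals that in part overlap theirs (1.82 to 8.44 FPKM in the first CDGC1 library and 1.21 to 3.49 in the second control library). The entries were longest in control, at 436 and 426 bases, against 263 and 386 in CDGC1 and 357 and 226 in CDGC6. FPKM is scaled to length, and the part of entry length in these values was not tested. The entries have their nearest base 115 to 282 bases upstream and carry no strand. They overlap no exon of GENCODE vM21 but fall within the gene's outer limits, because 1 annotated exon of Cnot6l lies further upstream (96164022 to 96164171). The 250 bases before the usual start are printed from RefSeq (GRCm38.p6, minus strand, chr5:96161991-96162240) because the unnamed entries begin inside or just beyond them, and capitals mark the 131 bases inside the entry of the first control library:
Cnot6l upstream: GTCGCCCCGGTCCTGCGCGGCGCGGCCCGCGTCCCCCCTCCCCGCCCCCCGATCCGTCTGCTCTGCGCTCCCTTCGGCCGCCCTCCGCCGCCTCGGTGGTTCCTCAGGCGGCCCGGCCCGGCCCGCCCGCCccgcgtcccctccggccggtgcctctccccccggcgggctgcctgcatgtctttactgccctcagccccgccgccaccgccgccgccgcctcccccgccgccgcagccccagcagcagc
With the 50 bases after the start, this window is 82.7% G and C and holds 49 CpG dinucleotides, against a median of 7 in all windows of that length. RefSeq windows whose start matches the files exist for 5 members (Cnot3, Cnot4, Cnot6, Cnot6l and Cnot10). All 5 hold GGGCGG on either strand, as do 35.7% of 32851 windows, and none holds TATAAA, as do 13.6%. CCAAT was in 2 of the 5 (37.4% of all windows) and CGGAAG in 2 (16.9%). CACGTG was in 1 (7.15%). Both strands were searched, GGGCGG and CGGAAG can overlap at the letters CGG, and a match is only a description.

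The DEDD nucleases Cnot7 and Cnot8 did not pass against control in any group. Cnot7 had 35.3 and 37.2 FPKM in Dnd1-KD, 33.5 and 31.7 in CDGC1, 28.4 and 30.01 in CDGC6, and 32.9 and 30.2 in control. Unnamed entries overlap its locus in the first CDGC1 library (3.89 FPKM) and the first CDGC6 library (16.7 FPKM). Their part in the Cnot7 values was not tested. Against control, Cnot7 differed by 0.20 in Dnd1-KD (95% interval 0.01 to 0.38), 0.05 in CDGC1 (−0.14 to 0.23) and −0.11 in CDGC6 (−0.29 to 0.08). Dnd1-KD was highest and CDGC6 lowest, and those groups are the only pair of Cnot7 that passed (CDGC6 against Dnd1-KD −0.30 ± 0.08, adjusted p = 0.0165). That call was lost with median-ratio scaling (−0.24, 0.0615), without the second Dnd1-KD library (−0.27, 0.0776) and without the first CDGC6 library (−0.26, 0.0663), over alternatives from 0.0159 to 0.0776. Cnot8 had 66.7 and 71.2 FPKM in Dnd1-KD, 53.0 and 65.8 in CDGC1, 61.1 and 71.3 in CDGC6, and 48.3 and 70.9 in control. The spread within control was as wide as that between any groups, and its second library has an entry that reaches 950 bases further at the 5′ end. Against control, Cnot8 differed by 0.23 in Dnd1-KD (95% interval −0.25 to 0.71), 0.01 in CDGC1 (−0.47 to 0.49) and 0.17 in CDGC6 (−0.31 to 0.65).

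The balance within each nuclease pair was read as a ratio inside a library, which library scaling cannot change. Cnot6 exceeded Cnot6l by 12.9 and 8.79 times in Dnd1-KD, 6.21 and 6.69 times in CDGC1, 7.13 and 8.47 times in CDGC6, and 8.42 and 8.12 times in control. CDGC1 had the lowest ratios, and the first Dnd1-KD library stood apart at the top. Over all ways to split the libraries into 4 groups of 2, an exact permutation test of the F statistic on the log2 ratio gave p = 0.0286, and 0.0571 after adjustment over the 2 ratios, where 0.00952 is the smallest value possible. The range of group means was 0.72, and it was 0.45 without the first Dnd1-KD library and 0.999 without the second. Cnot7 over Cnot8 was 0.529 and 0.522 in Dnd1-KD, 0.632 and 0.482 in CDGC1, 0.465 and 0.421 in CDGC6, and 0.681 and 0.426 in control (exact permutation p = 0.676). The control libraries alone spanned the whole range of this ratio but for its lowest value.

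**Figure D2:**
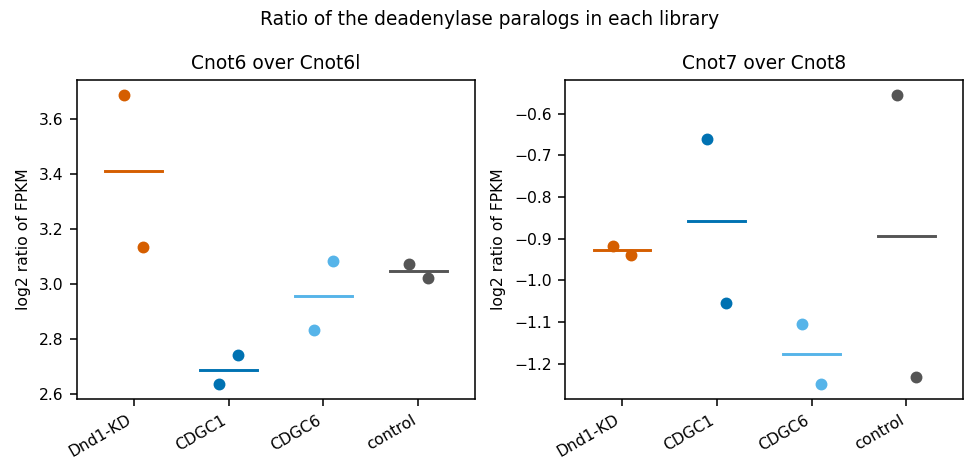
Log2 ratio of FPKM of the nuclease paralogs (vertical axis) in each of the 8 libraries, by group, with a point for each library and a line for the group mean. Cnot6 over Cnot6l is lowest in CDGC1 and highest in the first Dnd1-KD library, and Cnot7 over Cnot8 varies as much within control as between groups.

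Cnot10 fell in CDGC1. Cnot10 and Cnot11 form a module on CNOT1 in human cells, and Cnot10 had 22.9 and 25.9 FPKM in CDGC1, against 33.7 and 27.6 in Dnd1-KD, 38.7 and 46.7 in CDGC6, and 39.0 and 38.1 in control. Both CDGC1 libraries were below the other 6, and the Dnd1-KD libraries came next. The CDGC1 mean of 24.4 ± 2.11 FPKM was 0.632 times the control mean of 38.6 ± 0.607 FPKM (SD, n = 2 each), a log2 difference of −0.64 ± 0.13 (adjusted p = 0.00816). CDGC1 was lower than CDGC6 as well, with a log2 difference of −0.78 ± 0.13 (adjusted p = 0.00424), and both calls held in 19 of 19 alternatives. CDGC6 was higher than Dnd1-KD by 0.47 ± 0.13 (adjusted p = 0.0261), a call lost with only the compared groups in the fit (0.0610), without the second Dnd1-KD library (0.33, 0.127) and without the second CDGC6 library (0.33, 0.121), over alternatives from 0.0140 to 0.127. Dnd1-KD differed from control by −0.33 (95% interval −0.65 to −0.01, adjusted p = 0.1004). The entry of the second Dnd1-KD library reaches 18621 bases further upstream than the usual one, and that library has the lower of the Dnd1-KD values. The entry of the second CDGC6 library, which has the highest Cnot10 value of all 8, reaches 1597 bases further at its 3′ end. The part of these longer entries in the values was not tested. Cnot10 lies on chromosome 9 (114585878 to 114640184, minus strand), and the annotation places the snRNA gene Gm23232 inside it on the same strand.

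Cnot11 was the steadiest member. It had 21.5 and 21.0 FPKM in Dnd1-KD, 21.0 and 21.4 in CDGC1, 20.8 and 20.0 in CDGC6, and 21.3 and 22.2 in control. The groups nearly coincide. Its differences from control were −0.03 in Dnd1-KD (95% interval −0.19 to 0.13), −0.04 in CDGC1 (−0.20 to 0.12) and −0.09 in CDGC6 (−0.25 to 0.07), so a 2-fold change lies outside each interval. While Cnot10 of CDGC1 was at 0.632 times control, Cnot11 of CDGC1 was at 0.973 times control.

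**Figure D3:**
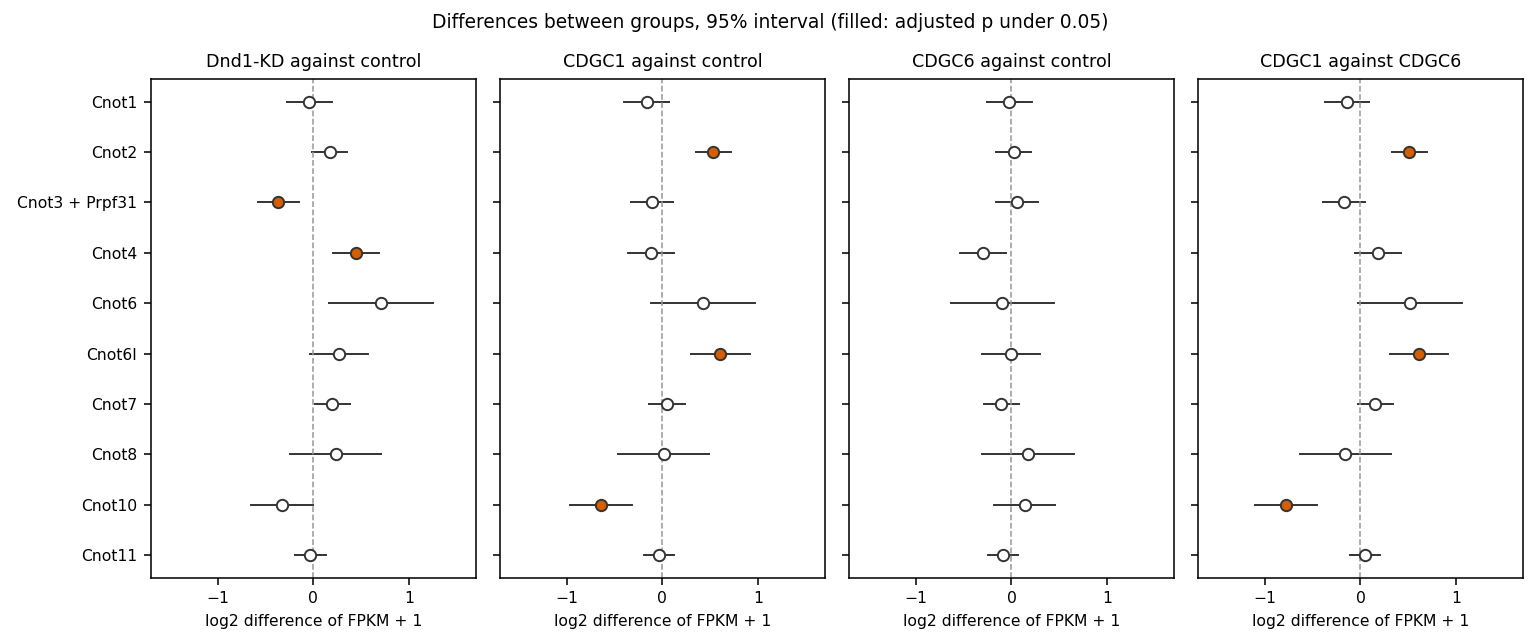
Log2 difference of FPKM + 1 (horizontal axis) with its 95% interval for each CCR4-NOT gene (vertical axis) in 4 comparisons; filled points passed limma at an adjusted p under 0.05. Cnot3 + Prpf31 and Cnot4 passed in Dnd1-KD against control, Cnot2, Cnot6l and Cnot10 passed in CDGC1 against control and against CDGC6, and none passed in CDGC6 against control.

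Counted together, the members passed in no larger a share than all units in any of the 6 comparisons, and with 10 members such shares are coarse. In Dnd1-KD against control, 1 of the 10 rose (Cnot4) and 1 joint unit fell (Cnot3 with Prpf31), where 36.3% of all units were called, 20.7% higher and 15.5% lower. The median absolute log2 difference was 0.25 over the members and 0.29 over all units. In CDGC1 against control, 2 rose (Cnot2 and Cnot6l) and 1 fell (Cnot10), where 50.5% of all units were called, 23.6% higher and 26.9% lower, and the medians were 0.14 and 0.39. In CDGC6 against control, limma called 0 of the 10, where 18.7% of all units were called, 8.48% higher and 10.2% lower. The count was 0 in each of the 19 alternatives too, but those without a control or CDGC6 library called far fewer of all units. With 10 members, a repeated 0 there carries little information. In the fit of all 8 libraries 1 member, Cnot4, was below an unadjusted p of 0.05 (−0.30, 95% interval −0.54 to −0.06, adjusted p = 0.0821). In CDGC1 against CDGC6, Cnot2 and Cnot6l were higher and Cnot10 lower, where 47.2% of all units were called, 23% higher and 24.1% lower. This comparison and that of CDGC1 with control share the CDGC1 libraries. In CDGC1 against Dnd1-KD, 2 were higher (Cnot2 and the joint unit of Cnot3 with Prpf31) and 1 lower (Cnot4). Of all units 61.6% were called there, 26.7% higher and 35% lower. With joined entries set to missing, 1 member was higher and 1 lower. Without the second Dnd1-KD library 1 was higher and 3 were lower, and without the first Dnd1-KD, the second CDGC1 or either control library 1 was higher and 1 lower. In CDGC6 against Dnd1-KD, 2 were higher (Cnot10 and the joint unit of Cnot3 with Prpf31) and 3 lower (Cnot4, Cnot6 and Cnot7). Of all units 53.6% were called there, 24.4% higher and 29.3% lower. With joined entries set to missing, 1 member was higher and 3 were lower.

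The summed level of the 9 members with values of their own was close in all groups. It was 322 ± 9.95 FPKM in Dnd1-KD, 298 ± 2.65 in CDGC1, 296 ± 5.85 in CDGC6 and 293 ± 12.2 in control (SD, n = 2 each). The 4 nucleases made up 44.1 ± 1.11% of that sum in Dnd1-KD, 41.2 ± 2.50% in CDGC1, 39.2 ± 1.496% in CDGC6 and 38.5 ± 2.75% in control. The nuclease share of both Dnd1-KD libraries (43.3% and 44.9%) lay above that of every other library, the highest of which was the second CDGC1 library at 43.0%. With scaling by median ratios the Dnd1-KD sum was 309 FPKM, against 293 FPKM in control.

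Values of 1 group also differed between libraries by more than the tables' own intervals. Of 33 pairs of libraries in which no interval starts at 0, 12 had intervals that do not overlap. The 24 values of those 12 pairs rest on 503 to 2271 implied fragments each. The limma test is based on the spread between libraries and does not use these intervals.

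By the likeness of its profile over the 8 libraries, Cnot6 was nearest to Slc22a21, Uggt1 and Capza2, with root mean square differences of 0.12, 0.13 and 0.13 on the centred log2 scale. Capza2, which encodes a subunit of the actin capping protein, had 125 and 91.1 FPKM in Dnd1-KD, 103 and 94.4 in CDGC1, 75.4 and 74.2 in CDGC6, and 74.5 and 75.7 in control. Its first Dnd1-KD library was the highest, as for Cnot6, which is part of the likeness it was chosen by. Cnot10 was nearest to Ift140, Agtrap and Sdhaf3, with differences of 0.07, 0.08 and 0.08.

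Among 61 listed genes that work with the complex, 58 tested units gave 11 that rose and 9 that fell in Dnd1-KD against control, 6 and 17 in CDGC1 against control, 3 and 9 in CDGC6 against control, and 11 and 10 in CDGC1 against CDGC6. As shares of the list these are 34.5%, 39.7%, 20.7% and 36.2%, where 36.3%, 50.5%, 18.7% and 47.2% of all units were called. Over the 48 units of a single symbol, 10 rose and 6 fell in Dnd1-KD against control, 2 and 17 in CDGC1 against control, 2 and 9 in CDGC6 against control, and 7 and 10 in CDGC1 against CDGC6. Thus 4 of the 6 rises in CDGC1 belong to joined entries (Rc3h2, Zfp36l2, Btg3 and Tnks1bp1). Cnot9, the subunit that contacts CNOT1 beside the nucleases and is listed as Rqcd1, had 41.8 and 38.0 FPKM in Dnd1-KD, 50.6 and 40.9 in CDGC1, 41.4 and 38.6 in CDGC6, and 40.7 and 40.4 in control, and passed in none of these comparisons. Tnks1bp1, a partner of the complex, is joined with Ssrp1 in some tables. Their joint value fell in Dnd1-KD by 0.40 ± 0.06 on the log2 scale (adjusted p = 0.00603), yet with joined entries set to missing Tnks1bp1 itself was 0.38 higher than control (adjusted p = 0.0769). The joint call was also lost without the first control library (−0.38, adjusted p = 0.0568), over alternatives from 0.00513 to 0.0769.

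The BTG/TOB proteins bind CNOT7 and CNOT8 directly and link the nucleases to RNA-bound factors. Of their 5 tested genes, 4 rose in Dnd1-KD (Btg1, Btg2, Btg3 and Tob1) and 0 fell, where 20.7% of all units rose. In CDGC1 against control 1 rose (Btg3) and 2 fell (Btg1 and Tob1), where 23.6% of all units rose and 26.9% fell. The log2 difference of Tob1 there was −0.71 ± 0.16 (limma adjusted p = 0.0105), called in 18 of 19 alternatives. In CDGC6 against control 0 rose and 1 fell (Btg2), where 8.48% of all units rose and 10.2% fell. Btg1 had 15.8 and 16.8 FPKM in Dnd1-KD, 3.203 and 3.65 in CDGC1, 6.44 and 5.28 in CDGC6, and 6.40 and 6.66 in control. Its Dnd1-KD libraries stood far above and its CDGC1 libraries below all others, with log2 differences from control of 1.20 ± 0.11 (adjusted p = 0.00164) and −0.77 ± 0.11 (adjusted p = 0.00211). Btg2 had 32.5 and 31.3 FPKM in Dnd1-KD, 16.8 and 16.3 in CDGC1, 11.4 and 9.83 in CDGC6, and 17.3 and 17.2 in control. It rose in Dnd1-KD by 0.85 ± 0.09 (adjusted p = 0.00194) and fell in CDGC6 by 0.65 ± 0.09 (adjusted p = 0.00711). The fall in CDGC6 was lost without the first or second control library (adjusted p = 0.0642 and 0.0586, over alternatives from 0.00520 to 0.0642). Btg3, joined with Gm7334, was 0.57 ± 0.08 higher in Dnd1-KD (adjusted p = 0.00394) and Tob1 0.74 ± 0.16 higher (adjusted p = 0.0147). Tob2, with 0.51 (95% interval 0.06 to 0.97), did not pass. The count of 4 was the same under both other scalings and was 3 without the second Dnd1-KD, the first control or the second control library.

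**Figure D4:**
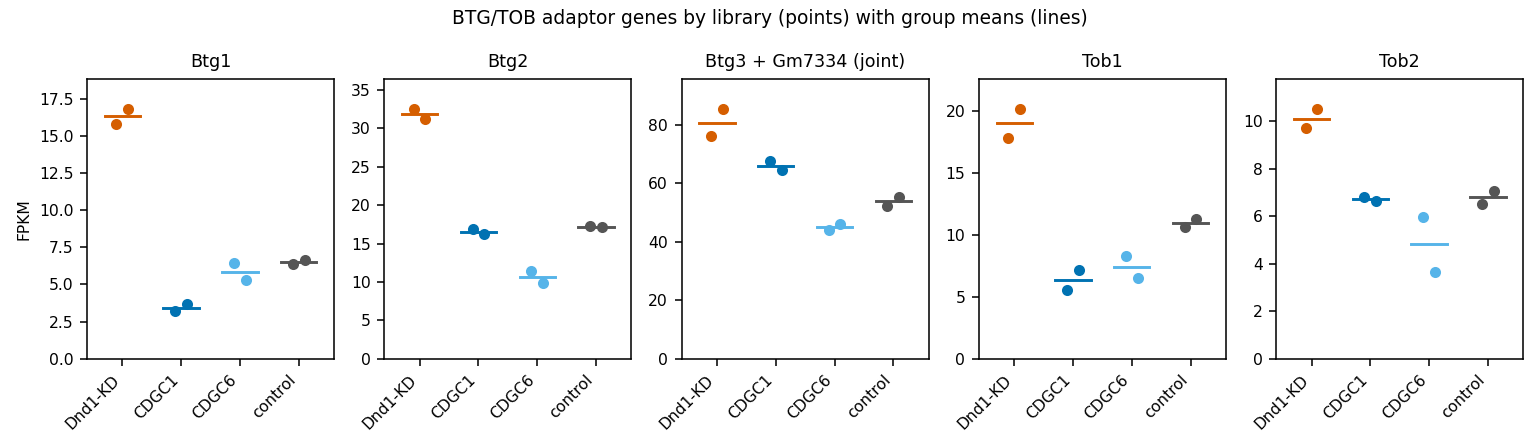
FPKM (vertical axis, from 0) of the 5 tested BTG/TOB genes in the 8 libraries, by group, with a point for each library and a line for the group mean; Btg3 is drawn with Gm7334. Both Dnd1-KD libraries lie above all other libraries in each panel, and the share of all units with such a separation was not counted.

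Of 21 tested units of RNA-binding proteins that recruit the complex, 7 rose and 2 fell in Dnd1-KD, where 20.7% of all units rose and 15.5% fell. Cpeb2, which binds cytoplasmic polyadenylation elements, had 8.96 and 12.1 FPKM in Dnd1-KD and 2.46 and 2.54 FPKM in control, a log2 difference of 1.71 ± 0.16 (adjusted p = 0.00157). Tnrc6a, the GW182 protein of microRNA silencing, had 35.9 and 28.7 FPKM in Dnd1-KD and 15.3 in both control libraries (1.02 ± 0.11, adjusted p = 0.00223). Nanos3, a germ-cell RNA-binding protein and DND1 partner, was among those that fell, with 2.42 and 1.10 FPKM in Dnd1-KD and 5.15 and 6.26 FPKM in control (−1.32 ± 0.23, adjusted p = 0.00850). In CDGC1 against control 3 rose and 6 fell, where 23.6% of all units rose and 26.9% fell. Zfp36, or tristetraprolin, which binds AU-rich elements, had 1.01 and 1.18 FPKM in CDGC1 and 12.3 in both control libraries (−2.67 ± 0.25, adjusted p = 0.000329). Nanos3 fell there too, to 2.29 and 2.05 FPKM in CDGC1 (−1.08 ± 0.23, adjusted p = 0.00939), while its 2.54 and 2.93 FPKM in CDGC6 did not pass against control (−0.84, 95% interval −1.40 to −0.28). The 6 falls in CDGC1 were 3 without the first control library and 2 without the second. The joint unit of Rc3h2 and Pdcl rose in CDGC1 by 0.91 ± 0.06 (adjusted p = 8.32e-05), but Rc3h2 on its own values did not pass (0.15, adjusted p = 0.421, over alternatives from 7.73e-05 to 0.421). In CDGC6 against control 0 rose and 4 fell by limma, where 8.48% of all units rose and 10.2% fell, among them Cpeb2 (−1.003 ± 0.16, adjusted p = 0.0116) and Cpeb4 (−0.87 ± 0.18, adjusted p = 0.0247). The Cpeb2 call was lost without the second CDGC6 library (adjusted p = 0.0514) or the first or second control library (0.0745 and 0.0759), over alternatives from 0.00820 to 0.0759. The Cpeb4 call was lost without either library of CDGC6 (0.0745 and 0.0893) or control (0.118 and 0.130) and with a pseudocount of 5 (0.0591), over alternatives from 0.0130 to 0.130. The count of falls was 0 without the second CDGC6 library or either control library, and 1 without the first CDGC6 library.

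Of the 7 genes listed as deadenylases outside the complex, limma called 0 in Dnd1-KD, where 1 had an unadjusted p under 0.05. There 1 rose with quantile normalization, with only the compared groups in the fit or without the first or second CDGC6 library. In CDGC1 against control 3 of 7 fell (1 without the first control library and 2 without the second), and in CDGC6 1 of 7 fell. Over all units 26.9% fell in CDGC1 and 10.2% in CDGC6. Noct, which encodes the circadian protein nocturnin and is listed as Ccrn4l, had 44.7 and 43.1 FPKM in Dnd1-KD, 29.4 and 28.5 in CDGC1, 17.2 and 19.0 in CDGC6, and 38.2 and 37.1 in control. It was the one that fell in both derived lines, by 0.37 ± 0.07 in CDGC1 (adjusted p = 0.00669, and 0.0555 without the first control library, over alternatives from 0.00585 to 0.0555) and by 1.02 ± 0.07 in CDGC6 (adjusted p = 0.00108). Angel2, of the same nuclease family as Cnot6, fell in CDGC1 (9.73 and 9.17 FPKM, against 13.6 and 13.5 in control, −0.48 ± 0.08, adjusted p = 0.00283). Pabpc1, the main cytoplasmic poly(A)-binding protein, fell in CDGC1 (600 and 638 FPKM, against 871 and 892 in control, −0.51 ± 0.06, adjusted p = 0.000869).

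Decapping and 5′ decay factors take over once the tail is short. Of 19 tested units 0 rose and 6 fell in Dnd1-KD, where 15.5% of all units fell, and 4 of the 6 were LSM ring subunits with entries of their own (Lsm3, Lsm4, Lsm5 and Lsm7). The others were Patl2, a paralog of the decapping factor Patl1, and the joint unit of Lsm2 and Vars, in which Lsm2 cannot be told apart. Lsm7 had 139 and 129 FPKM in Dnd1-KD, 257 and 318 in CDGC1, 290 and 333 in CDGC6, and 222 and 229 in control. Both Dnd1-KD libraries were below all others, with a log2 difference from control of −0.75 ± 0.12 (adjusted p = 0.00647). The joint unit of Lsm2 and Vars had 75.5 and 75.7 FPKM in Dnd1-KD and 149 and 148 in control (−0.97 ± 0.06, adjusted p = 0.000374). The count of 6 falls was the same under both other scalings, and was 5 without the second Dnd1-KD library and 4 and 3 without the first and second control library. Lsm1, the subunit that marks the cytoplasmic decay ring, had 12.3 and 27.0 FPKM in Dnd1-KD and 12.4 and 12.5 in control and was not called. In CDGC1 1 rose and 5 fell, where 23.6% of all units rose and 26.9% fell. Lsm14b, an RNA granule protein, had 9.86 and 12.1 FPKM in CDGC1, against 30.3 and 31.8 in control (−1.43 ± 0.10, adjusted p = 0.000105), and Eif4enif1, the translational repressor 4E-T, had 56.3 and 58.0 FPKM in CDGC1, against 36.9 and 35.4 in control (0.65 ± 0.06, adjusted p = 0.000361). In CDGC6 3 rose and 3 fell, where 8.48% of all units rose and 10.2% fell, and both counts were 0 without the first or the second control library. Without the first CDGC6 library 1 rose and 1 fell, and without the second 0 rose and 1 fell. Without either Dnd1-KD library, which share the fit, 1 rose and 2 fell.

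Between the derived lines, 11 of the 58 units were higher in CDGC1 and 10 lower, where 23% of all units were higher and 24.1% lower. Among the 11 was the unit that joins Dnd1 with Hars, although Dnd1 itself was listed at 0 in every library of both lines. CDGC1 was lower than CDGC6 in Zfp36 (1.01 and 1.18 FPKM, against 18.4 and 9.97, −2.80 ± 0.25, adjusted p = 0.000346) and Lsm14b (−1.60 ± 0.10, adjusted p = 9.00e-05), and in Parn, a poly(A)-specific ribonuclease (15.0 and 16.4 FPKM, against 23.9 and 25.0, −0.60 ± 0.08, adjusted p = 0.00144). CDGC1 was higher in Btg2 (0.60 ± 0.09, adjusted p = 0.00237), Noct (0.65 ± 0.07, adjusted p = 0.000829) and Eif4enif1 (0.83 ± 0.06, adjusted p = 0.000179).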

How the data were processed

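The authors deposited FPKM values with an interval around each, in a gene table for each library whose columns, per the file headers, are those of Cufflinks. Cufflinks, Cuffdiff, TopHat2, Bowtie and the build mm10 appear in the submitters' processing notes, and versions and roles are not given in the sources used here. Read counts were not used. The number of fragments behind an FPKM was estimated from the width of its interval.

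Symbols that any table joins form a single unit everywhere, whose level is the sum of their FPKM (657 of the 11889 tested units). Small RNA genes were removed. The test was limma 3.58.1 (R 4.3.3) on log2(FPKM + 1), two-sided, fitting a mean for each of the 4 groups in 1 model of the 8 libraries with a trended eBayes, Benjamini-Hochberg adjustment over all units and a threshold of 0.05. The script was tested on simulated data. Paralog ratios used an exact permutation test. The alternatives were other pseudocounts, filters, scalings, fits and entry choices, and each library left out. Setting joined entries to missing was added after the data were seen.

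Members and gene lists were chosen with earlier results of these data known. All members are named, and of the related genes at most 2 per role and comparison with the smallest adjusted p among those called. Btg3, Tob1, Tob2, Nanos3, Cnot9 and Lsm1 were named after their values were seen. Sequences are from RefSeq (GRCm38.p6) and GENCODE vM21. Python 3.11.15, pandas 2.3.3, numpy 2.4.6, scipy 1.17.1 and matplotlib 3.10.9 were used.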

Additional observations from a re-analysis of the deposited data

Results flagged for a closer look

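In the limma fit of all 8 libraries, the direct difference of CDGC1 from CDGC6 was called for 3 members. Cnot2 was higher in CDGC1 by a log2 difference of 0.51 (adjusted p = 0.00250) and Cnot6l by 0.61 (adjusted p = 0.00896), and Cnot10 was lower, with a log2 difference of −0.78 (adjusted p = 0.00424). For each of them both CDGC1 libraries lay outside the range of the CDGC6 libraries. The same was true of Cnot3 with Prpf31, Cnot4, Cnot6, Cnot7 and Cnot11, which were not called. The share of all units with such a separation was not counted. Of all units, 47.2% were called in this comparison. Cnot6 was also higher in CDGC1, by a log2 difference of 0.52, but was not among the members called in that fit. A fit of the CDGC1 and CDGC6 libraries alone did call Cnot6 (limma adjusted p = 0.0250).

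The unnamed entries upstream of Cnot6l are outside the comparisons and were higher than in control in all 4 derived-line libraries. They had 5.13 and 4.51 FPKM in CDGC1 and 3.73 and 7.53 FPKM in CDGC6, against 1.57 and 2.35 FPKM in control, and no entry was listed in Dnd1-KD. These values were not tested, and their strand is not given. The control entries were the longest, at 436 and 426 bases, against 226 to 386 bases in the derived lines. The part of entry length in the values was not tested.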

How the results depend on the processing

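With 2 libraries a group, most changes came from leaving out 1 library. Members called in Dnd1-KD against control numbered 2, and 0 to 2 when a library was left out (0 without the first or second control library, 1 without the second Dnd1-KD library), and 1 with joined entries set to missing, an alternative chosen after seeing the data. Units called there ranged from 1365 to 4932 around 4311 when a library was left out, and in CDGC6 against control from 422 to 2908 around 2225. Members called in CDGC6 against Dnd1-KD numbered 5, 3 with only the compared groups in the fit, and 2 to 5 when a library was left out (2 without the second Dnd1-KD library, 3 without the second CDGC6 library). Members called in CDGC1 against Dnd1-KD numbered 3, and 2 to 4 when a library was left out (4 without the second Dnd1-KD library). The range of group means of the log2 ratio of Cnot6 over Cnot6l ran from 0.446 to 0.999 and that of Cnot7 over Cnot8 from 0.248 to 0.623, highest without the second control library. With median-ratio scaling the summed level was 309 FPKM in Dnd1-KD and 304 FPKM in CDGC1. The causes were not tested.

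Among values of single genes, 25 changed sign, 20 newly passed the threshold, 62 no longer passed and 2004 kept both. Leaving out 1 library moved the log2 difference from control of Cnot8 between −0.0391 and 0.504 in Dnd1-KD, −0.258 and 0.285 in CDGC1, and −0.101 and 0.443 in CDGC6. The same step gave −0.228 to 0.00312 for Cnot3 with Prpf31 and −0.0125 to 0.108 for Cnot7 in CDGC1 against control, and −0.0992 to 0.0547 for Cnot1 and −0.139 to 0.131 for Cnot6l in CDGC6 against control. In CDGC1 against Dnd1-KD it gave −0.646 to 0.0888 for Cnot6 and −0.0230 to 0.0117 for Cnot11, and in CDGC6 against Dnd1-KD −0.0549 to 0.0990 for Cnot1 and −0.172 to 0.0486 for Cnot8. Quantile normalization turned Cnot1 to 0.0323 in Dnd1-KD against control and −0.0751 in CDGC6 against Dnd1-KD, Cnot8 to −0.0216 in CDGC1 against control, and Cnot11 to 0.0469 in CDGC1 and 0.0393 in CDGC6 against Dnd1-KD. Median-ratio scaling turned Cnot6l to 0.000306 in CDGC6 against control and Cnot11 to 0.0753 in CDGC1 and 0.00211 in CDGC6 against Dnd1-KD. With joined entries set to missing, Tnks1bp1 turned to 0.381 in Dnd1-KD against control and Cnot3 to −0.183 in CDGC1 against Dnd1-KD.

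Correlations of the deviations from the group mean between same-numbered libraries ran from −0.0722 to 0.123, highest for Dnd1-KD with control. The first libraries of these groups also had the most implied fragments (17.7 M and 18.0 M, against 10.7 M to 13.3 M in the others). Whether libraries of the same number share a preparation or run was not tested. With the replicate number as a block, 3 members were called in Dnd1-KD against control (with Cnot6 added), where 3927 of 11889 units were called. In CDGC1 against control 3 members were called (5779 units), in CDGC6 against control 0 (1681 units) and in CDGC1 against CDGC6 3 (5368 units). In CDGC1 against Dnd1-KD 3 were called (7136 units), with Cnot6l added (0.34, adjusted p = 0.0324) and Cnot3 with Prpf31 lost (0.25, adjusted p = 0.0725). In CDGC6 against Dnd1-KD 5 were called (6122 units).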
